A study of Mus musculus with 16 samples.

Results

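The carbonic anhydrases described here are 7 genes, Car1, Car2, Car3, Car5a, Car8, Car13 and Car14, taken by their symbols from the 30463 genes of a liver RNA sequencing table. The study used wild type C57BL/6N mice whose livers were taken at 14 weeks of age. All mice were injected at 2 weeks of age, with vehicle or with diethylnitrosamine (DEN), a liver carcinogen that hepatocyte P450 enzymes turn into a DNA-alkylating agent. At 6 weeks they either stayed on control diet or changed to a diet labelled 60% high fat, which gave 4 groups of 4 mice (vehicle and control diet, DEN and control diet, vehicle and high fat diet, DEN and high fat diet). Whole liver was sequenced, so fewer cells of a type and less RNA per cell cannot be told apart.

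No value per mouse is given, because the library columns of the table carry codes that match no sample label. What could be read is 1 comparison made by the authors, which lists for each gene its normalized count averaged over libraries (here the mean count), a log2 fold change, the standard error (SE) of that change and a p-value. Which groups stand on its sides is not named. A positive log2 fold change is therefore written as higher on the positive side, and no member can be assigned to an effect of diet or of DEN. The depth of each library is unknown here.

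Carbonic anhydrases are zinc enzymes that interconvert CO2 and bicarbonate. The family members differ mainly in where they sit. Car1, Car2, Car3 and Car13 are cytosolic, Car5a lies in the mitochondrial matrix, and Car14 is anchored in the plasma membrane with its active site facing outward. In liver, mitochondrial bicarbonate feeds carbamoyl phosphate synthesis for the urea cycle and the carboxylation of pyruvate for gluconeogenesis. Car8 has no CO2 hydratase activity and is known as a binding partner of the inositol trisphosphate receptor.

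The zinc ion is held by histidines, a pair of which lie 1 residue apart, and this pair tells the enzymes from Car8. The coding sequence around the pair is shown for all 7 members to make that difference visible. Each stretch is 27 bases of the GENCODE M21 transcript, written 5′ to 3′ on the coding strand, with the codons of the pair in capitals.
Car1: actcagttcCATtttCACtggggcaac
Car2: atccagtttCACtttCACtggggctca
Car3: cgccaattcCATcttCACtggggctcc
Car13: cggcagttcCATttgCACtgggggtca
Car5a: aagcagtttCATttcCACtggggagca
Car14: gcccagctcCACctgCACtggggtcag
Car8: tatgaagttAGAtttCACtggggaaga
The codons CAT and CAC both stand for histidine, and 6 of the 7 members carry a histidine codon at both places. The search for the site required the second histidine, so only the first place could differ. In Car8 the first of the pair is AGA, an arginine codon. The pair stands at codons 94 and 96 of Car2 and of Car3, at codons 95 and 97 of Car1 and Car13, and at codons 124 and 126 of Car5a, whose coding sequence is longer at 299 codons against 260 for Car3. In Car14 the pair is at codons 109 and 111, and in Car8 the matching codons are 117 and 119.

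Car3 was by far the most abundant member. Divided by exon length, its mean count in the authors' deposited table came to 4912 per kb, rank 183 among all genes with a length. That was 12.3 times the level of the next member, Car5a, at 399.8 per kb. Car8 followed at 179.5 per kb and Car14 at 121.9 per kb. Car2 at 43.8 and Car1 at 41.6 per kb lay next to each other, and Car13 was lowest at 6.27 per kb. Whether neighbours in this order differ beyond their spread cannot be read from a table of means. Undivided by length, the authors' deposited table lists mean counts of 14072 for Car3, 691.7 for Car8, 535.3 for Car5a, 309.9 for Car14, 106.2 for Car2, 51.9 for Car1 and 14.4 for Car13. Car3 alone made up 89.2% of the summed mean count of the 7 genes.

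**Figure D1:**
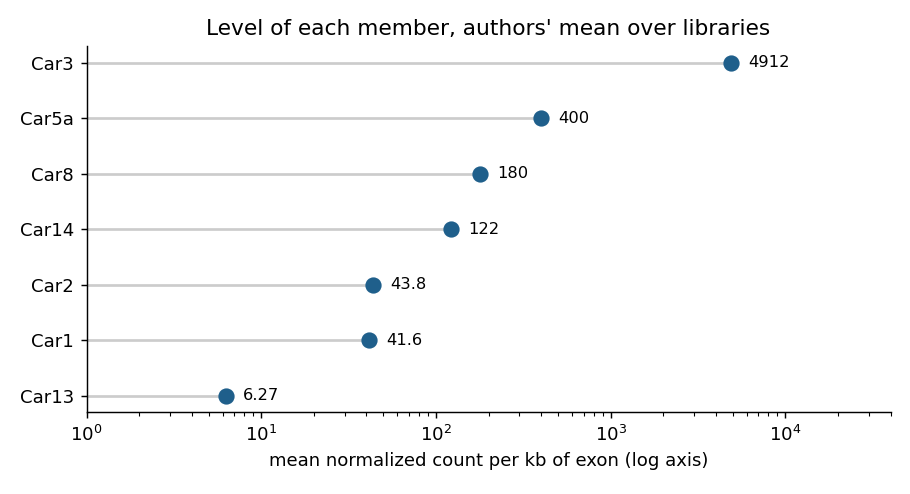
Mean count per kb of exon (horizontal log axis) for each of the 7 carbonic anhydrases, computed from the authors' mean over libraries, with no error because values per library were not used. Car3 at 4912 stands apart from Car5a at 399.8, and Car13 is lowest at 6.27.

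None of the 7 carbonic anhydrases passed the test in the authors' comparison. At an adjusted p below 0.05, 0 of 7 were called, where 6.57% of all 16288 tested genes were (1070 genes, 3.67% positive and 2.90% negative). At an unadjusted p under 0.05 there was 1 member, Car3, beside 19.0% of all tested genes. In sign, 5 members were positive and 2 negative, with a median log2 fold change of 0.095 against -0.0044 for all tested genes, 49.2% of which were positive. The median size of the log2 fold change, regardless of sign, was 0.37 for the members and 0.18 for all tested genes. The SE of the members ran from 0.15 to 0.59, against a median SE of 0.18 for all tested genes. These sizes were therefore not compared at like precision. No source used here names the tool or model behind these p-values.

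**Figure D2:**
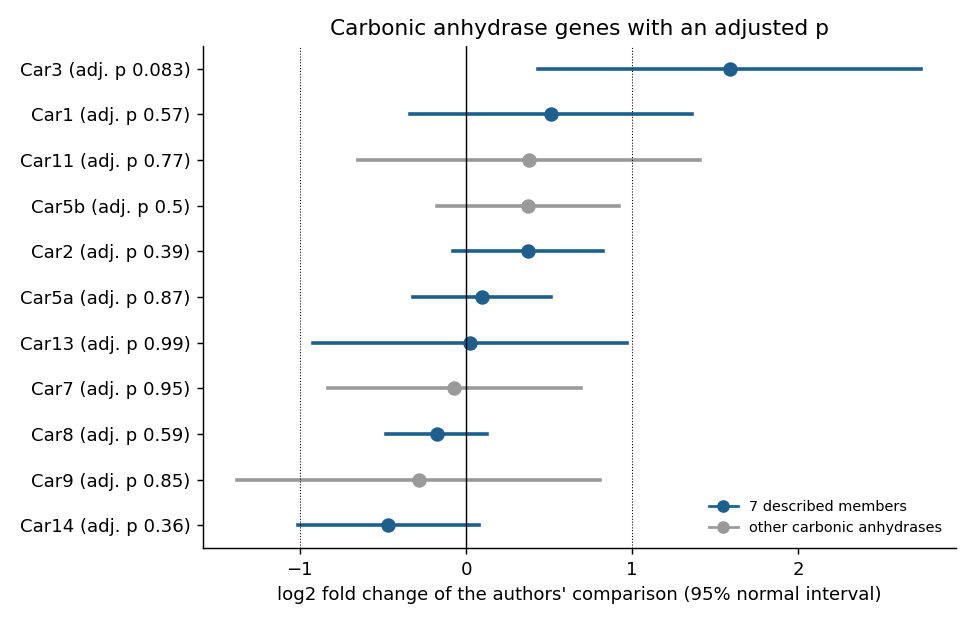
Log2 fold change of the authors' comparison (horizontal axis) for the 11 carbonic anhydrase genes with an adjusted p, as a point with its 95% normal interval from the authors' SE. Blue marks the 7 described members and grey the other 4, the dotted lines mark a 2-fold difference, and only the interval of Car3 leaves 0 outside.

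Car3 encodes the cytosolic isoform with low CO2 hydratase activity that is abundant in muscle, fat and liver. It had the widest difference of the members, 1.59 ± 0.59 on the log2 scale (SE) by the authors' deposited table. That is 3.003-fold higher on the positive side, with a 95% interval of 1.35 to 6.68-fold. Its p was 0.0070 unadjusted and its adjusted p in the authors' deposited table was 0.0828, so it was not called. The interval lies above 0 because it is not adjusted for the number of genes tested.

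The SE of Car3 was wide for a gene of its abundance. The SE of 0.59 in the authors' deposited table was 4.05 times the median SE of 0.15 among the 235 other tested genes within 2-fold of its mean count. Only 1 of those genes had a larger SE. At this SE a log2 fold change of 1.73, or 3.32-fold, would have been needed to be called. Of the 2469 tested genes with a mean count of at least 1000, 11 had a log2 fold change at least as wide as that of Car3, itself included, and Car3 was the only one of the 11 not called. Among all tested genes, 164 were at least as wide, of which 117 were called. All 7 members had an SE above the median of tested genes within 2-fold of their own mean count, from 1.35 times for Car2 to 4.05 times for Car3. What sets the SE of Car3 was not tested.

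**Figure D3:**
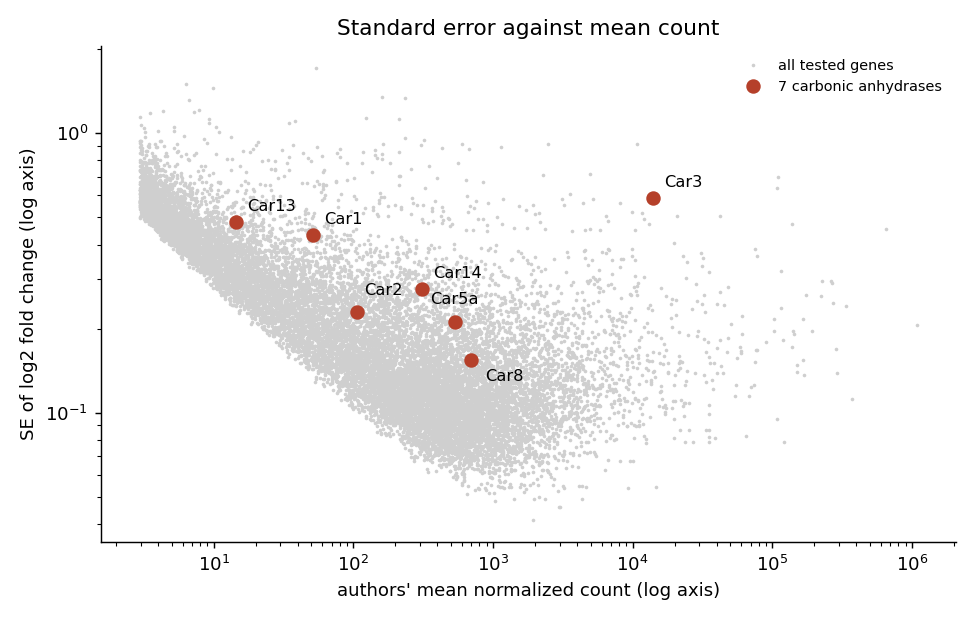
SE of the log2 fold change (vertical log axis) against mean count (horizontal log axis) for all 16288 tested genes in grey and the 7 carbonic anhydrases in red, all from the authors' deposited table. Car3 lies high above the genes of like abundance at an SE of 0.59, while Car8 at 0.15 lies within the mass of genes.

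Car3 belongs to a run of 4 carbonic anhydrase genes on chromosome 3 that spans 259 kb in GRCm38 and holds no other protein-coding gene. Car13 (ENSMUSG00000027555) lies at 14641727 to 14663002 on the plus strand and Car1 (ENSMUSG00000027556) at 14766216 to 14808368 on the minus strand. Car3 (ENSMUSG00000027559) follows at 14863512 to 14872523 and Car2 (ENSMUSG00000027562) at 14886273 to 14900770, both on the plus strand. Only 13.7 kb separate the end of Car3 from the start of Car2, yet the level of Car3 per kb of exon was 112 times that of Car2. The run also holds 2 pseudogenes, Gm5843 and Gm16399, with mean counts of 0.111 and 0.284 in the authors' deposited table and no adjusted p. Gm16399 lies inside Car1 on the same strand.

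The neighbours of Car3 had smaller differences, all positive in sign and none called. Car2, the fast cytosolic isoform known from red cells, bile duct and kidney, stood at 0.37 ± 0.23 on the log2 scale by the authors' deposited table (SE, adjusted p = 0.388). Its 95% interval ran from 0.947 to 1.77-fold, so a 2-fold difference in either direction lies outside. For Car1, the other abundant red cell isoform, the authors' deposited table gives 0.51 ± 0.43 (log2, SE, adjusted p = 0.572), an interval of 0.792 to 2.57-fold. For Car13 the authors' deposited table lists 0.02 ± 0.48 (log2, SE, adjusted p = 0.988). At its low count the interval still allowed 0.529 to 1.95-fold. Differences between these neighbours were not tested, since that needs values per library.

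**Figure D4:**
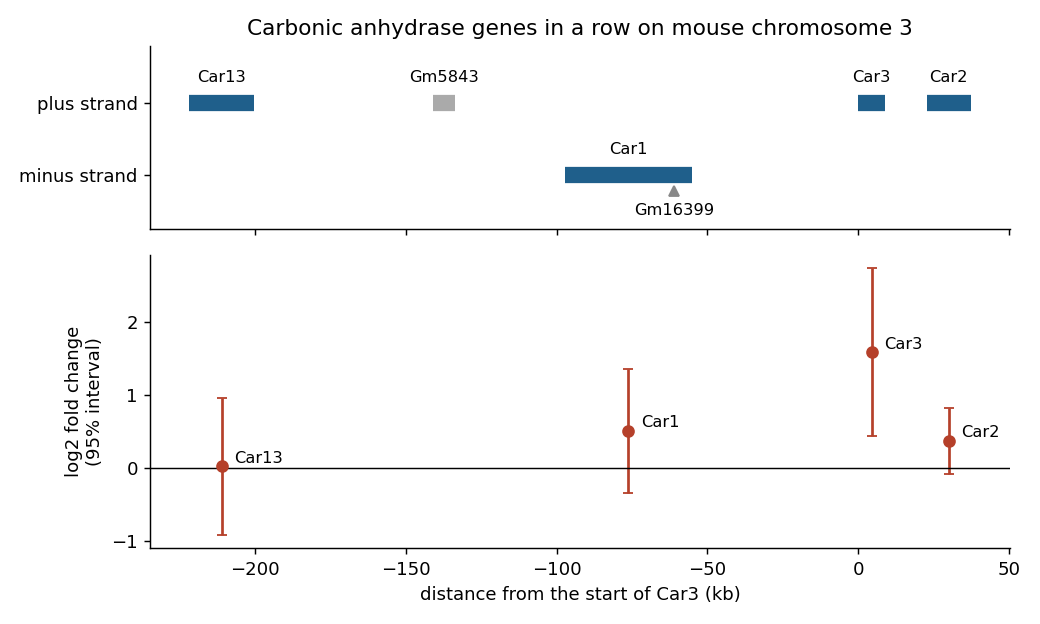
Upper panel, the genes of the chromosome 3 run by strand and by distance from the start of Car3 in kb, with protein-coding genes in blue, Gm5843 in grey and a grey triangle at Gm16399, which is too short to draw. Lower panel, the log2 fold change of each protein-coding gene with its 95% normal interval from the authors' SE, where Car3 at 1.59 is highest and Car13 at 0.02 lowest.

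Car5a, the mitochondrial isoform of hepatocytes, was among the members with the least difference. The authors' deposited table lists it at 0.10 ± 0.21 (log2, SE, adjusted p = 0.867). The 95% interval of 0.802 to 1.42-fold excludes a 2-fold difference in either direction. Car5a (ENSMUSG00000025317) lies on chromosome 8 from 121916126 to 121944904 on the minus strand in GRCm38. It overlaps the noncoding gene BC048644 on the plus strand, for which the authors' deposited table lists a mean count of 44.0 and a log2 difference of -0.01 ± 0.27 (SE). The annotated protein-coding gene Gm20388, also on the plus strand, spans Car5a and has no values here. The library kit keeps strand, but no source used here says whether the counting did. Reads from stretches shared with either gene therefore cannot be told apart.

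Car14 and Car8 were the members with a negative sign. Car14, the membrane isoform, stood at -0.47 ± 0.28 on the log2 scale by the authors' deposited table (SE, adjusted p = 0.363). That is 1.38-fold higher on the negative side, with a 95% interval of 0.949 to 2.02-fold. The SE of Car14 was 2.29 times the median of tested genes of like mean count, and 94.9% of those genes had a smaller one. Car14 (ENSMUSG00000038526) lies on chromosome 3 as well, at 95897768 to 95904691 on the minus strand, far from the run of 4. One end of it overlaps the plus-strand gene Aph1a, which the authors' deposited table lists at -0.03 ± 0.14 (log2, SE). The mean count of Aph1a there was 216.3, against 309.9 for Car14. As with Car5a, reads from the shared stretch cannot be told apart, since strand use in the counting is not stated.

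Car8, the isoform without hydratase activity, had the smallest SE of the members. By the authors' deposited table it stood at -0.18 ± 0.15 on the log2 scale (SE, adjusted p = 0.591). The 95% interval, 0.916 to 1.40-fold higher on the negative side, is the narrowest of the 7. Car8 (ENSMUSG00000041261) lies on chromosome 4 from 8143362 to 8239041 on the minus strand. The pseudogene Gm11799 lies inside it, with a mean count of 2.03 in the authors' deposited table. In all, the 95% intervals of 4 members (Car2, Car5a, Car8 and Car13) lay within 2-fold in both directions.

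The rest of the family had low mean counts. Of 9 further carbonic anhydrase genes looked up, 8 were in the table and 4 had an adjusted p, with 0 called and 0 at an unadjusted p under 0.05. Beside these counts, the shares over all tested genes were 6.57% called and 19.0% at an unadjusted p under 0.05. Car5b, the second mitochondrial isoform, led them, listed in the authors' deposited table with a mean count of 30.5 and a log2 difference of 0.37 ± 0.28 (SE, adjusted p = 0.501). For Car7, a cytosolic isoform, the authors' deposited table lists a mean count of 14.0 and a log2 difference of -0.07 ± 0.39 (SE, adjusted p = 0.953). Car9, the membrane isoform induced by hypoxia, was at -0.28 ± 0.56 with a count of 3.04, and Car11, which lacks hydratase activity, at 0.38 ± 0.53 with a count of 4.46 (log2, SE, mean count, authors' deposited table). Car4, Car6, Car12 and Car15 had mean counts of 0.284 to 1.33 and no adjusted p in the authors' deposited table. Car10 was not analysed here.

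Enzymes that use bicarbonate, and those that supply their biotin cofactor, were read beside the family. Of 11 such genes, all tested, 1 was called positive and 2 negative, where 3.67% and 2.90% of all tested genes were. At an unadjusted p under 0.05 there were 5 of the 11, beside 19.0% of all tested genes. Their log2 fold changes had a median of 0.03 against -0.0044 for all tested genes. The called positive gene was Mccc2, a subunit of methylcrotonoyl-CoA carboxylase in leucine breakdown, listed in the authors' deposited table at 0.37 ± 0.11 (log2, SE, adjusted p = 0.0138). The called negative genes were Cps1, which joins ammonia and bicarbonate to open the urea cycle, and Btd, which recycles biotin. The authors' deposited table gives -0.93 ± 0.15 for Cps1 (log2, SE, adjusted p = 2.9e-07) and -0.37 ± 0.11 for Btd (log2, SE, adjusted p = 0.0236). Pyruvate carboxylase, Pcx, is listed in the authors' deposited table at 0.14 ± 0.10 (log2, SE, adjusted p = 0.486). The acetyl-CoA carboxylase genes Acaca and Acacb were at 0.16 ± 0.23 and -0.01 ± 0.16 there, neither called (log2, SE, authors' deposited table). Pccb and Mccc1 had an unadjusted p under 0.05 but were not called. They stood at 0.25 ± 0.09 (adjusted p = 0.0685) and 0.20 ± 0.10 (adjusted p = 0.252, log2, SE, authors' deposited table). The uncalled genes of this list were named with their values known. Car5a, which makes the mitochondrial bicarbonate that Cps1 and Pcx use, was thus not called beside a called Cps1, and the difference between the genes was not tested.

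Genes of bicarbonate, proton and CO2 transport, including the transporter partners Bsg and Slc9a3r1, gave no call. Of 26 genes looked up, 17 had an adjusted p, with 0 called, 3 at an unadjusted p under 0.05 and a median log2 fold change of -0.03. Among all tested genes, 6.57% were called and 19.0% had an unadjusted p under 0.05. For the sodium bicarbonate cotransporter gene Slc4a4, with a mean count of 3422, the authors' deposited table lists 0.12 ± 0.14 (log2, SE, adjusted p = 0.705). The anion exchanger gene Slc4a2 was at -0.15 ± 0.11 (log2, SE, adjusted p = 0.463) there, and the lactate and proton carrier gene Slc16a1 at 0.35 ± 0.17 (log2, SE, adjusted p = 0.219, authors' deposited table). These 3 genes are named for their roles and were chosen after their values were seen.

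**Figure D5:**
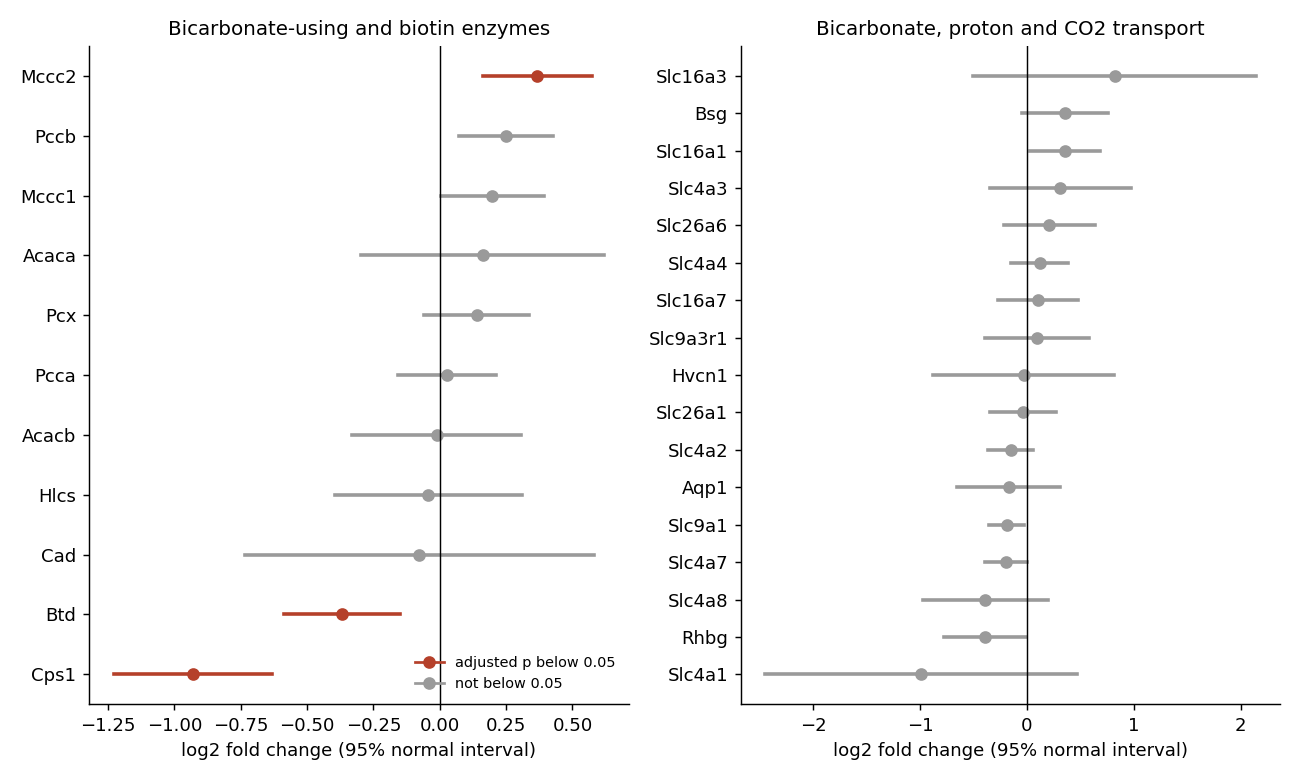
Log2 fold change with its 95% normal interval from the authors' SE for 11 bicarbonate-using and biotin genes (left) and 17 tested transport genes (right), with called genes in red. Mccc2 is called on the positive side, Btd and Cps1 on the negative side, and no transport gene is called.

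Some carbonic anhydrases are markers of other cells, so lists for those cells were read beside them. Hepatocyte markers were abundant, the lowest of them being Serpina1a with a mean count of 12998.5 in the authors' deposited table, and 2 of 8 (Tat and Cps1) were called negative, with 3 at an unadjusted p under 0.05. By sign, 1 of the 8 was positive and 7 were negative, with a median log2 fold change of -0.25. Car3 is also abundant in fat and muscle. Of 7 fat cell genes 6 were in the table, with mean counts of 435.0 for Fabp4, 395.2 for Cfd, 77.1 for Adrb3, 0.558 for Retn, 0.439 for Plin1 and 0.387 for Adipoq in the authors' deposited table. The 3 with the higher counts were tested, and 1 was called, Cfd, which the authors' deposited table lists at 7.93 ± 0.69 (log2, SE), on the same side as the sign of Car3. Fabp4 had that sign too, listed in the authors' deposited table at 0.73 ± 0.31 (log2, SE, unadjusted p = 0.0191, adjusted p = 0.151), and Adrb3 the other, at -0.25 ± 0.35. Of 9 skeletal muscle genes 4 were in the table, with mean counts of 11.3 for Mylpf, 0.434 for Acta1, 0.253 for Ckm and 0.238 for Tnnt3 in the authors' deposited table. Mylpf alone was tested and not called (0.18 ± 0.34, log2, SE, adjusted p = 0.844, authors' deposited table).

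Car1 and Car2 are abundant in red cells, and Car2 in bile duct. Of 12 red cell genes 9 were tested, with 0 called, 1 at an unadjusted p under 0.05, 2 positive and 7 negative in sign, and a median of -0.23. The positive genes were Hbb-bs, the most abundant of the list with a mean count of 2108, at 0.46 ± 0.33, and Alas2, with a mean count of 1292, at 0.12 ± 0.16 (log2, SE, authors' deposited table). The gene at an unadjusted p under 0.05 was negative, Klf1 at -0.52 ± 0.18 (log2, SE, adjusted p = 0.0579, authors' deposited table). The other globin genes were negative too, Hba-a1 at -0.25 ± 0.49, Hba-a2 at -0.20 ± 0.49 and Hbb-bt at -0.23 ± 0.53 (log2, SE, authors' deposited table). Of 7 bile duct genes 5 were tested, with 0 called, 0 at an unadjusted p under 0.05, all 5 positive in sign and a median of 0.43. All 7 Kupffer cell markers were tested and negative in sign (median -0.62), with 2 called, Timd4 and Fcna, and 5 at an unadjusted p under 0.05. All 7 sinusoidal endothelial markers were tested and negative in sign too (median -0.40), with 0 called and 2 at an unadjusted p under 0.05. Over all tested genes the shares were 6.57% called and 19.0% at an unadjusted p under 0.05. The part of fat, muscle, red, bile duct, Kupffer and endothelial cells in the values of the 7 members was not tested. Marker genes named here that were not called were chosen after their values were seen.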

How the data were processed

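Per the labels' protocols, liver RNA of 16 mice was made into strand-keeping mRNA libraries and sequenced. The submitters' processing notes name FastQC, Trimmomatic, HISAT2, HTSeq 0.11.1 and GRCm38, without role or order. Per the file headers, the deposited table holds, for each gene, the authors' normalized count averaged over libraries (a signal), their log2 fold change and its SE on the log2 scale, their test statistic (a score), and their p-value and adjusted p-value. No source used here states the authors' scaling, model, samples or sides. The 16 per-library columns match no label and were not used, so the planned edgeR fits for diet, DEN and their interaction were not run, and no depth or SD per sample is given.

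The deposited statistic equals fold change over SE, its p is the 2-sided normal p, and the adjusted p is Benjamini-Hochberg over the 16288 genes with one. Genes counted as called below an adjusted p of 0.05. Intervals are 95% normal intervals from the authors' SE. Exon lengths (union of exons) and positions came from GENCODE M21 on GRCm38, matched by identifier for 99.8% of genes. Zinc-site codons were located by translating each coding sequence and searching for a run of residues. The run began with phenylalanine, leucine, valine, tryptophan or glutamine. Then came histidine or arginine, a nonpolar residue, histidine, tryptophan and glycine or serine. Over the 21 pairs of members, transcripts shared at most 30 identical bases in a row (Car2 and Car13). All members are described, with every tested gene of the family, the called genes of each list, and the genes inside the chromosome 3 run. The members and lists were chosen with earlier results of these data known, and the windows of mean count used for the SE after the values were seen. Only the p-value adjustment and the threshold were tested on simulated data, log2 fold changes with normal noise of the authors' SE. The other steps were not simulated. All were run with Python 3.11.15, pandas 2.3.3, SciPy 1.17.1 and Biopython 1.88. Alternatives were other thresholds, adjustments, count minimums, a scaled statistic and a centred fold change.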

Additional observations from a re-analysis of the deposited data

How the results depend on the processing

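Of the 7 carbonic anhydrases, 0 were called under 8 of the 9 alternatives. Among those 8, the threshold of 0.01, Benjamini-Yekutieli, Bonferroni and the scaled statistic could only remove calls. With 0 called at the start, their outcome was fixed in advance. With the threshold at 0.1, 1 was called, Car3 on the positive side. The adjusted p of Car3 ranged from 0.0661, when tested among genes with a mean count of 100 or more, to 1 with Bonferroni, and was 0.152 over every gene with a p-value and 0.719 with every statistic scaled by their median absolute deviation. The other 6 members gave 52 values under the alternatives, all on the same side of the threshold, with a lowest adjusted p of 0.309. For the values under the stricter alternatives named above, that side was again fixed in advance. Car1 and Car13 have no value under the count minimum of 100, which removes them. No member changed sign, but only the centred fold change alters that value, by the median of -0.0044. Every member's log2 fold change is larger in size than this, so no sign could change. Over all genes, 1070 were called, and the count became 491 at a threshold of 0.01, 389 with Benjamini-Yekutieli, 185 with Bonferroni and 142 with the scaled statistic, which follows from the stricter adjustment or scaling. No paired analysis was possible because the columns of the libraries carry no label or replicate number of any sample. For the same reason no fit with DESeq2, without a count filter or without each replicate was run. Depth per library is unknown, and the precision of every value rests on the authors' SE.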
